A study of Mus musculus with 9 samples.

Results

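S100 genes encode small calcium-binding proteins, and 8 of them were examined in CD11b+ splenocytes: S100a1, S100a4, S100a6, S100a8, S100a9, S100a10, S100a11 and S100a13. Members were taken by gene symbol from the annotation of the array, and each gene was read from its brightest probe set, by the mean over the 9 arrays. Probe sets that name a single gene existed for 7 of the 8, out of 18193 genes so measured. S100a11 was represented by a probe set that names several genes and is not analysed here. All 7 measured members passed the filter on dim genes and were among the 13078 genes tested.

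The study asked whether expression in CD11b+ spleen cells differs between mice under repeated social threat and mice under non-threatening conditions. All animals were C57BL/6. The HighThreat group had 6 arrays with RNA of 1 animal each, and the LowThreat control group had 3 arrays, each from a pool of 2 animals (numbered 1-2, 3-4 and 5-6). Cells were enriched from adherent spleen cells with magnetic beads against CD11b, the integrin chain carried by monocytes, granulocytes and many macrophages, so the material is a selected mixture and not 1 cell type. Values are log2 expression from Affymetrix MOE430 arrays, on which a difference of 1 is a doubling.

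S100 proteins carry a pair of EF-hand calcium-binding loops and mostly act as dimers that bind target proteins when calcium rises. S100A8 and S100A9 form calprotectin, a major cytosolic complex of neutrophils and monocytes that withholds zinc and manganese from microbes and, once released, acts on TLR4 and the receptor RAGE. The other members studied here serve mainly inside cells, on the cytoskeleton, on annexins and on calcium handling. Most S100 genes lie side by side, and on mouse chromosome 3 S100a1 and S100a13 are neighbours, S100a4, S100a5 and S100a6 follow each other, and S100a8 is next to S100a9.

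Expression of 5 of the 7 measured S100 genes was higher in threat animals and none was lower. S100a1 and S100a6 rose most, by 1.89-fold and 1.84-fold, S100a13 by 1.58-fold, and the calprotectin genes S100a9 and S100a8 by 1.39-fold and 1.31-fold. S100a4 and S100a10 did not pass the test. Calls were made with limma at a Benjamini-Hochberg adjusted p under 0.05 over all 13078 genes, of which 45.8% were called, 23.8% as higher and 22% as lower. The groups of arrays did not overlap for the same 5 S100 genes, with all threat animals above all control pools, which was so for 21.5% of genes tested (41.8% in either direction). The same 5 also passed a limma treat test for a change beyond 1.2-fold, which called 16.5% of genes, 7.99% as higher. The median difference of the 7 genes was 0.47, against 0.029 for all genes tested. In this mixture, fewer or more cells of a type cannot be told apart from less or more RNA per cell.

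**Figure D1:**
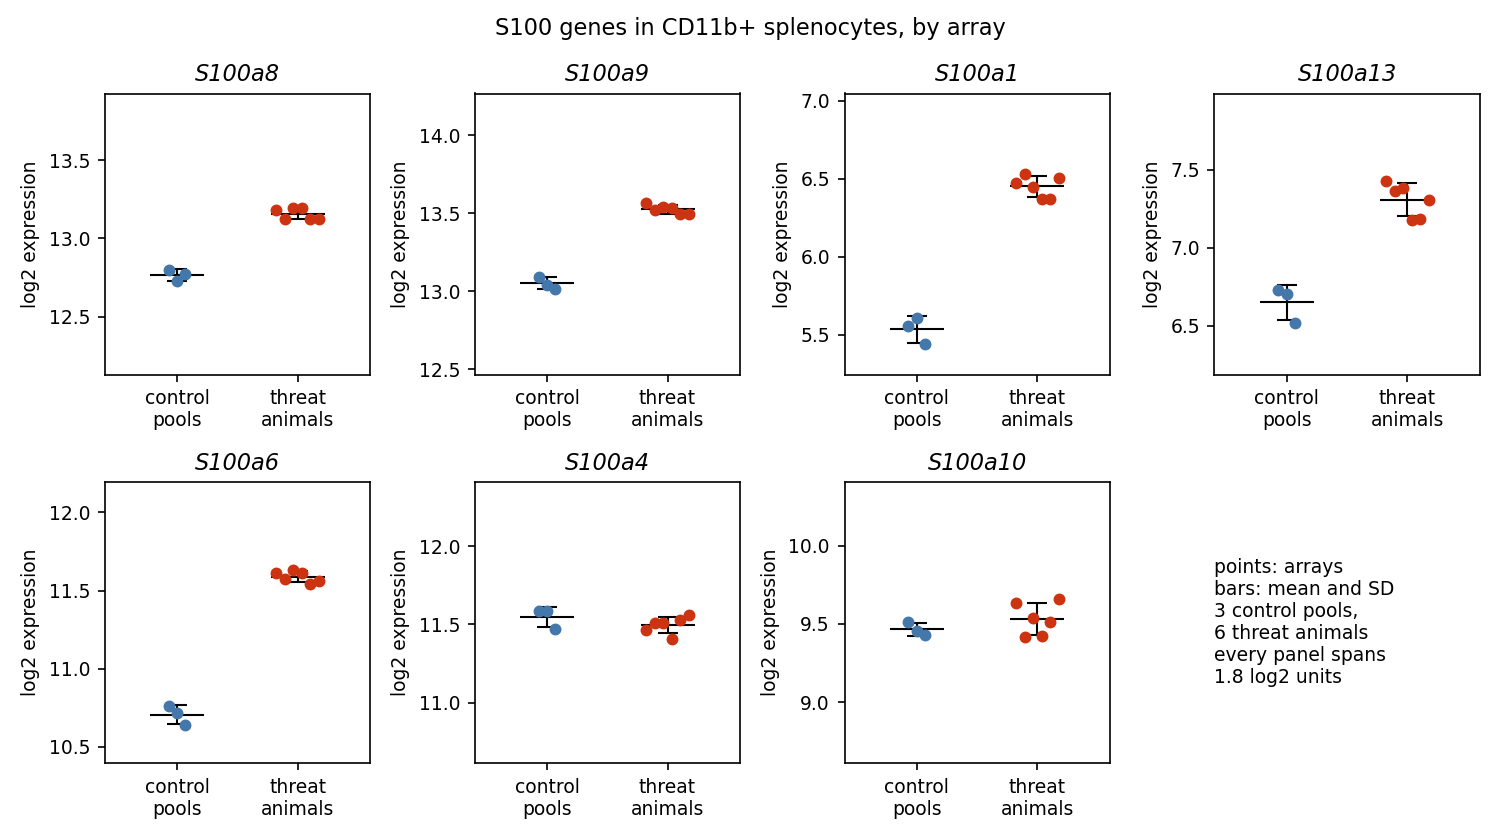
Log2 expression of the 7 measured S100 genes on each array, in the 3 control pools and the 6 threat animals (points), with mean and SD (bars). Each panel spans the same height of 1.8 log2 units. Threat animals lie above all control pools for S100a8, S100a9, S100a1, S100a13 and S100a6, and the groups overlap for S100a4 and S100a10.

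The sequences before the starts of 4 genes and between the starts of a divergent pair are given because they set neighbours that moved together beside neighbours that did not. They come from RefSeq on build GRCm38.p6, whose promoter table holds 7 of the 8 members (not S100a10). Capitals mark matches on either strand to 3 sets of letters: TTNNGNAA, a C/EBP-like core, GAGGAA, a PU.1-like core, and TATAAA, the TATA box. Of 32851 RefSeq promoter windows of 300 bases, from 250 before to 50 after a start, 40.7% hold the first, 28.3% the second and 13.6% the third. Each gene is given by the 250 bases before its start, read 5′ to 3′ on its own strand.
S100a8 (chr3:90668821-90669070, plus strand): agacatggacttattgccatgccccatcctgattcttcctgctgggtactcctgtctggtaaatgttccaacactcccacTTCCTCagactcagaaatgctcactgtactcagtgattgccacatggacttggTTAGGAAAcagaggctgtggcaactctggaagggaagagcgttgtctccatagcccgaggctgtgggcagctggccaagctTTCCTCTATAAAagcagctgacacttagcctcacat
S100a9 (chr3:90695722-90695971, minus strand): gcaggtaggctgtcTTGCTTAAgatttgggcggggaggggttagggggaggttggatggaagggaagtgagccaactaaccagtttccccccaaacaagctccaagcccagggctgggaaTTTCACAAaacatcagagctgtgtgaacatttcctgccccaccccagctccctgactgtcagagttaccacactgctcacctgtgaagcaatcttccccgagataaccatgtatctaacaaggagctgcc
S100a6 (chr3:90612644-90612893, plus strand): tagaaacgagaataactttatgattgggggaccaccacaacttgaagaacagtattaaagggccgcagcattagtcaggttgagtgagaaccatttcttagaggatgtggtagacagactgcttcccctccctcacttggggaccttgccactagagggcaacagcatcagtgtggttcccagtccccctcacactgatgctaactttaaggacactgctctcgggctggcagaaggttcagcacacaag
S100a4 (chr3:90603520-90603769, plus strand): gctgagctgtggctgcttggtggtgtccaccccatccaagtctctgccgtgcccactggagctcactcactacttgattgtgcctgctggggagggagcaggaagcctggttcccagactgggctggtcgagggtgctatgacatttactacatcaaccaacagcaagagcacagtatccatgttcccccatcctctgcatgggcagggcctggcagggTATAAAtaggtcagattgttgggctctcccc
S100a1 to S100a13 (chr3:90514331-90514434, plus strand): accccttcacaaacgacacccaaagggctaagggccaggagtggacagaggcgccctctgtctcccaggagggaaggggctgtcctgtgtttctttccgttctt
The last stretch is the 104 bases between the starts that the table uses for S100a1, which runs to the left on the minus strand, and for S100a13, which runs to the right. S100a8 has 1 C/EBP-like match and 2 PU.1-like matches in its window, and its TATA box begins at position -30, directly after the second PU.1-like match at -36. S100a9 has 2 C/EBP-like matches, at -236 and -130, and a TATAAA at its start, outside the stretch shown. S100a4 has a TATA box at -31, and a PU.1-like match at 19, after its start and outside the stretch shown. The windows of S100a6, S100a1 and S100a13 hold none of the 3 sets of letters. A match is a description of the letters and not a shown binding site.

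The calprotectin genes were already very bright in control cells. S100a8 was 12.80, 12.72 and 12.78 in control pools 1-2, 3-4 and 5-6, and ran from 13.13 over a median of 13.16 to 13.20 in the 6 threat animals. No threat animal fell to the level of a control pool, and the threat animals were spread over a narrow band. The difference was 0.39 (SE 0.044, 95% interval 0.29 to 0.49, limma adjusted p = 1.2e-05), from 12.77 ± 0.038 (SD, n = 3) to 13.16 ± 0.035 (SD, n = 6).

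S100a9 was 13.09, 13.04 and 13.02 in the control pools and ran from 13.49 over a median of 13.53 to 13.57 in threat animals. It also separated the groups without overlap, with a difference of 0.47 (SE 0.043, 95% interval 0.38 to 0.57, limma adjusted p = 1.8e-06). The value of S100a9 in threat animal 1, 13.567, was the highest in the whole table. Whether the signal still follows the amount of RNA in full at such brightness was not tested. Among the 28 tested genes with a mean of at least 12, differences ran from -0.21 to 1.46, and 3 exceeded that of S100a9. The largest was that of Lcn2, a neutrophil granule protein that binds bacterial iron carriers.

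In the deposited values, the balance of the subunit genes differed slightly. How far S100a9 lies above S100a8 depends on the probes, so only the change between groups is read here. Whether both signals follow the amount of RNA equally at such brightness was not tested, which bears on this change as well. The difference S100a9 minus S100a8 within an array was 0.28 ± 0.039 (SD, n = 3) in control pools and 0.37 ± 0.021 (SD, n = 6) in threat animals. It was 0.082 higher there, and the groups did not overlap (exact permutation p = 0.0119, two-sided, the smallest that 84 divisions of the arrays allow). Adjusted over the 3 pairs of genes compared, the exact permutation p stayed at 0.0119. The other pairs were added after their values were seen and also reached the smallest possible p. The adjustment could therefore not change this p and adds no support. The difference in balance depended on the scaling. With quantile normalization of the deposited values it was -0.010 (exact permutation p = 0.512), while the genes themselves still rose, S100a8 by 0.33 and S100a9 by 0.32.

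The protocol calls the cells monocytes, but genes of granulocytes were also expressed and were higher in the same arrays. Their part in the calprotectin result was not tested. The granulocyte list, which includes precursors, had 17 tested genes, of which 16 rose and none fell, with a median difference of 1.53. Over all genes tested, 23.8% were higher and 22% lower, with a median of 0.029. The brightness of the list summed over its genes, as log2 of the sum, was 13.92 to 14.05 in control pools and 14.73 to 15.08 in threat animals. The azurophil granule protease gene Prtn3 rose by 3.48 (SE 0.15) and the peroxidase gene Mpo by 2.95 (SE 0.20). Of the 8 tested genes listed for Ly6C-high monocytes, 6 rose and none was called lower (median 0.65, summed 13.30 to 13.42 in control pools and 13.86 to 13.97 in threat animals). Whether this list tells such monocytes apart from granulocytes was not tested. The largest rises were those of the haptoglobin gene Hp at 1.82 (SE 0.068) and the proteoglycan gene Vcan at 1.64 (SE 0.10), which was 0.77 with the mean of its probe sets. Ccr2 (-0.132, SE 0.060, limma adjusted p = 0.0926) and Fn1 (-0.126, SE 0.083, limma adjusted p = 0.241) did not pass. Itgam, which encodes CD11b itself, rose by 0.57 (SE 0.051), from 7.93 ± 0.026 (SD, n = 3) to 8.50 ± 0.070 (SD, n = 6).

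S100a1 and S100a13 start 104 bases apart on opposite strands, and both rose. S100A1 is best known from heart and skeletal muscle, where it tunes calcium cycling, and S100A13 takes part in the release of FGF1 and interleukin-1 alpha, which leave cells without a signal peptide. S100a1 was 5.56, 5.61 and 5.44 in control pools and ran from 6.37 over a median of 6.46 to 6.53 in threat animals. The groups were far apart, by 0.92 (SE 0.056, 95% interval 0.79 to 1.04, limma adjusted p = 5.2e-08). The second probe set of S100a1 gave 0.92 as well (SE 0.075), with all threat animals above all control pools.

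S100a13 was 6.73, 6.71 and 6.52 in control pools and ran from 7.18 over a median of 7.33 to 7.43 in threat animals, with animals 4 and 5 the lowest. The groups did not overlap, and the difference was 0.66 (SE 0.070, 95% interval 0.50 to 0.81, limma adjusted p = 7.6e-06). S100a1 rose more than S100a13. Within an array, S100a1 minus S100a13 went from -1.12 ± 0.049 (SD, n = 3) to -0.86 ± 0.070 (SD, n = 6), a gain of 0.26. The exact permutation p was 0.0119, the smallest possible, and 0.0119 adjusted over the 3 pairs. This comparison was chosen after the values were seen, so its p adds no independent support.

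S100a6 and S100a4 are separated along the chromosome by S100a5 alone. S100A6, or calcyclin, is a growth-associated protein that binds CACYBP, and S100A4, or metastasin, binds the heavy chain of non-muscle myosin IIA and supports cell movement. S100a6 was 10.76, 10.72 and 10.64 in control pools and ran from 11.54 over a median of 11.59 to 11.63 in threat animals. Every threat animal was well above every control pool, with a difference of 0.88 (SE 0.046, 95% interval 0.78 to 0.98, limma adjusted p = 1.3e-08).

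S100a4 was 11.58, 11.58 and 11.47 in control pools and ran from 11.41 over a median of 11.51 to 11.56 in threat animals. The groups overlapped and the gene did not pass (difference -0.051, SE 0.050, 95% interval -0.16 to 0.057, limma adjusted p = 0.435). That interval does not reach the rise of any S100 gene that passed. Within an array, S100a6 minus S100a4 was -0.87 to -0.82 in control pools and 0.0060 to 0.20 in threat animals, a gain of 0.94 with no overlap between groups. The exact permutation p was 0.0119, the smallest possible, and 0.0119 adjusted over the 3 pairs. This pair was chosen after S100a6 was seen to separate the groups and S100a4 to stay nearly level, so its p adds no support. The adjustment covers only the 3 pairs compared. S100a5, between them, had a mean of 2.79 near the filter value of 2.66 and did not pass (difference 0.079, SE 0.089, 95% interval -0.12 to 0.27, limma adjusted p = 0.51).

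**Figure D2:**
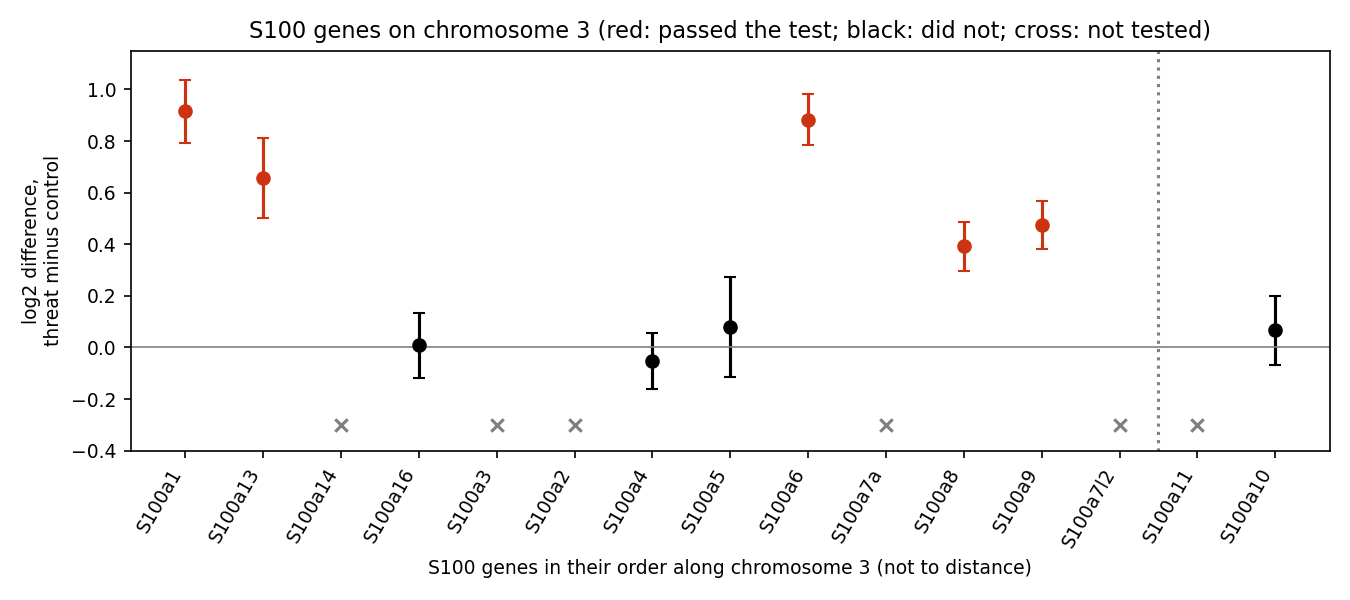
Difference in log2 expression, threat minus control, with its 95% interval (limma), for the S100 genes in their order along chromosome 3, without regard to distance. The dotted line stands for a gap of 54 other protein-coding genes before S100a11. Genes that passed the test (S100a1, S100a13, S100a6, S100a8 and S100a9) are interspersed with genes that did not (S100a16, S100a4, S100a5 and S100a10), and crosses stand for genes that were not tested.

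S100a10 did not pass with either of its 2 bright probe sets over all probe sets, and was lower with a dim one. S100A10, or p11, is the S100 protein that has lost calcium sensitivity, and it forms a complex with annexin A2 that anchors plasminogen at the cell surface. The probe set with the highest mean was 9.51, 9.45 and 9.43 in control pools and ran from 9.42 over a median of 9.53 to 9.66 in threat animals. Those groups overlapped, and the difference of 0.066 did not pass (SE 0.062, 95% interval -0.068 to 0.20, limma adjusted p = 0.416).

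A nearly as bright probe set of S100a10, with a mean of 9.48, was 0.16 higher in threat animals (SE 0.060) and separated the groups, with an adjusted p of 0.0519 in limma over all probe sets. This probe set became the gene's value, and passed (limma adjusted p = 0.046), when probe sets without an _x, _s or _a suffix were given preference. A dim probe set, with a mean of 3.47, was 3.96, 4.03 and 4.22 in control pools and 2.99 to 3.40 in threat animals, lower by 0.90 on the log2 scale (-0.900, SE 0.085, limma adjusted p = 6.3e-06). The 2 bright probe sets gave differences of one sign with overlapping intervals, and the dim one gave the opposite sign.

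**Figure D3:**
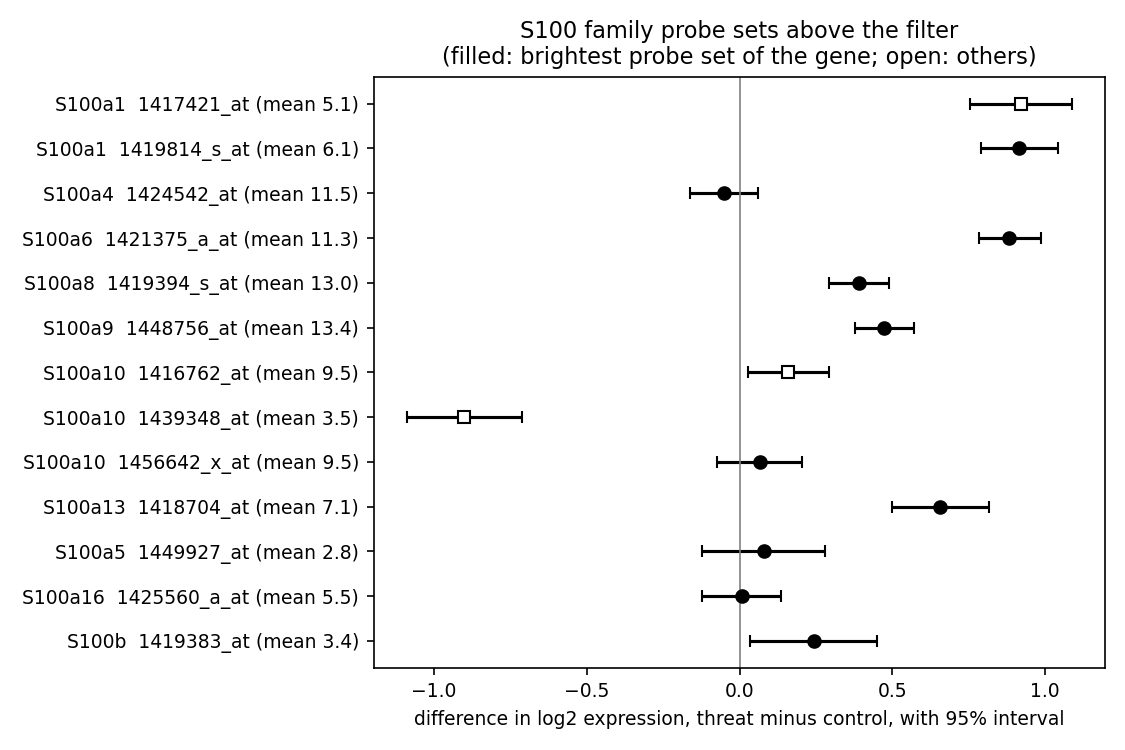
Difference in log2 expression, threat minus control, with its 95% interval (limma over all probe sets), for every S100 probe set above the filter, with the probe set's mean over all arrays in its label. Filled circles are the brightest probe set of a gene and open squares the others. Both probe sets of S100a1 lie at 0.92, whereas the 3 of S100a10 lie at 0.066, 0.16 and -0.90.

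Of 8 other S100 genes on a list, S100a7a and S100z had no probe set naming them alone and were not measured. S100a2 and S100a7l2, also on chromosome 3, were not on this list and were not tested. S100a3, S100a14 and S100g, with means of 2.26, 1.95 and 1.67, lay below the filter, and 3 were tested. S100a16, the neighbour of S100a14, did not pass (difference 0.008, SE 0.058, 95% interval -0.12 to 0.13, limma adjusted p = 0.925), and its sign turned in 3 of 20 other settings. S100b, on another chromosome and best known from glia, passed narrowly at 0.24 (SE 0.092, limma adjusted p = 0.0469). Its groups overlapped, and the call was lost in 10 of 18 other settings. It was lost without control pool 1-2 (difference 0.14, limma adjusted p = 0.263), without pool 5-6 and without threat animals 1, 3, 4 or 6 (adjusted p from 0.0505 to 0.0851).

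The list of receptors and coreceptors through which released S100 proteins act, which also holds the cytosolic adaptor gene Myd88, had 12 tested genes. Of these 7 rose, 2 fell and 3 did not pass, with a median difference of 0.24, beside 23.8% higher and 22% lower among all genes tested. The 7 include Tlr4 and Ager, whose calls depended on the probe set. Cd14, the lipopolysaccharide coreceptor that works with TLR4, rose by 0.58 (SE 0.044), and Cd33, a sialic acid receptor, by 0.73 (SE 0.073). Tlr4 rose by 0.24 (SE 0.061, limma adjusted p = 0.00614), a call that was lost when the mean of its probe sets was taken (0.11, limma adjusted p = 0.0916). Ager, which encodes RAGE, rose by 0.55 (SE 0.079), but it differed by 0.29 with the mean of its probe sets and by 0.024 with the other one alone, which carries no suffix (limma adjusted p = 0.849). The scavenger receptor gene Cd36 fell by 1.68 (SE 0.096), from 8.97 ± 0.058 (SD, n = 3) to 7.30 ± 0.19 (SD, n = 6), and the adhesion molecule gene Alcam by 0.75 (SE 0.063).

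The list of binding partners had 14 tested genes, of which 5 rose, 4 fell and 5 did not pass. The median difference was 0.026, against 0.029 for all genes tested, of which 23.8% were higher and 22% lower, so the counts are read as a description only. Anxa2, which encodes the partner of S100A10, rose by 0.59 (SE 0.045), from 10.86 ± 0.068 (SD, n = 3) to 11.46 ± 0.019 (SD, n = 6), and by 0.32 with the mean of its probe sets. Anxa1, whose protein binds S100A11, rose by 1.01 (SE 0.074). Ahnak, a giant scaffold protein bound by the S100A10 and annexin A2 complex, fell by 0.54 (SE 0.10), and by 0.28 with the mean of its probe sets (-0.283). Cacybp, the partner of S100A6, fell by 0.28 (SE 0.059) while S100a6 rose. Myh9, the myosin target of S100A4, differed by -0.061 (SE 0.059, limma adjusted p = 0.43), with a sign that turned in 4 of 20 other settings. Il1a rose by 0.17 (SE 0.061, limma adjusted p = 0.041), a call lost in 8 of 20 other settings, without any of the 3 control pools or of threat animals 1, 3, 4 and 6 (adjusted p from 0.062 to 0.113) and with no filter (0.0564).

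All 5 tested genes of the phagocyte NADPH oxidase, the superoxide-producing enzyme to which calprotectin can deliver arachidonic acid, rose, with a median of 0.79. Over all genes tested, 23.8% were higher and 22% lower, with a median of 0.029. The GTPase gene Rac2 rose by 0.92 (SE 0.059) and the cytosolic subunit genes Ncf1 and Ncf4 by 0.82 (SE 0.071) and 0.79 (SE 0.043). Cybb, which encodes the catalytic subunit, rose by 0.25 (SE 0.061). On the same arrays, 16 of 17 granulocyte markers and 6 of 8 Ly6C-high monocyte markers were higher, the latter without Ccr2 and Fn1. Of 7 Ly6C-low monocyte markers, 5 were lower and 2 higher. The part of these cells in the oxidase result was not tested.

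Transcription factors known to act on S100a8 and S100a9 differed in both directions. The list had 9 tested genes, 5 higher and 3 lower, and a median difference of 0.15. For all genes tested, the shares were 23.8% higher and 22% lower, and the median was 0.029. Several values depended on the probe set, and the mean over a gene's probe sets is given where it differs by over 1.5 times. Cebpd rose by 1.63 (SE 0.049), from 7.07 ± 0.062 (SD, n = 3) to 8.70 ± 0.048 (SD, n = 6), and by 1.09 with the mean of its probe sets. Klf5 rose by 0.72 (SE 0.12), and by 0.28 with that mean. Spi1, which encodes PU.1, rose by 0.52 (SE 0.056). Stat3, a factor downstream of interleukin-6 and granulocyte colony-stimulating factor, fell by 0.77 (SE 0.048), and by 0.50 with that mean (-0.496). Atf3 fell by 0.64 (-0.642, SE 0.056, limma adjusted p = 1.3e-06). Cebpb differed by 0.11 (SE 0.047, limma adjusted p = 0.0706) and passed in 5 of 20 other settings, one of them without control pool 5-6 (0.14, limma adjusted p = 0.0409). Cebpa (-0.18, limma adjusted p = 0.04) lost its call in 11 of 20 other settings, among them without control pools 1-2 or 3-4 or threat animals 1, 3, 4 or 5 (adjusted p from 0.0594 to 0.171). Irf7 (0.15, limma adjusted p = 0.0449) also lost it in 11, among them without control pools 1-2 or 5-6 or any of threat animals 2 to 6 (adjusted p from 0.0531 to 0.21), and was at 0.095 without pool 5-6. The call of Hif1a (0.20, limma adjusted p = 0.0156) was lost without control pool 1-2 (0.17, limma adjusted p = 0.0731), and the gene rose by 0.32 with probe sets that carry no suffix.

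**Figure D4:**
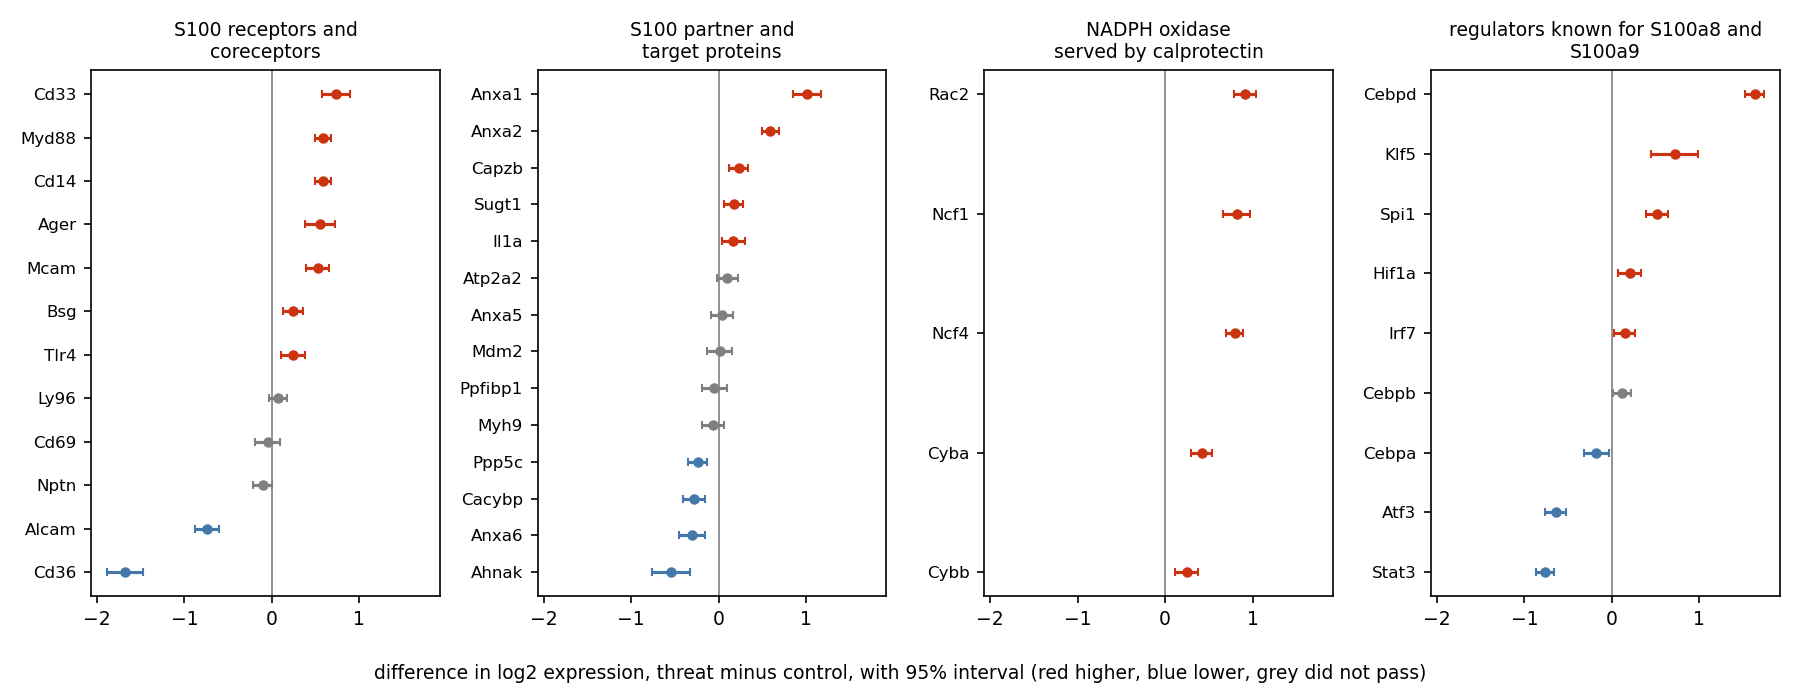
Difference in log2 expression, threat minus control, with its 95% interval (limma), for tested genes of 4 lists: S100 receptors and coreceptors, partner and target proteins, the NADPH oxidase, and regulators known for S100a8 and S100a9. Red genes were called higher, blue lower, and grey did not pass. All 5 oxidase genes lie to the right of 0, and the other lists hold genes on both sides.

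The genes whose values over the 9 arrays were most like those of S100a8 were Cry1, Pilra, Stfa2l1, Arg2 and AU040320, with Pearson correlations from 0.994 to 0.997. Their differences ran from 0.62 for AU040320 to 2.03 for Stfa2l1, a stefin gene whose near-identical copies make its value uncertain. For S100a9 they were AA467197, Cd52, Lcn2, Chil1 and Clec4a2, with correlations from 0.9988 to 0.9993 and differences from 0.51 for Cd52 to 2.11 for Chil1. No gene was on both lists. With 2 groups this far apart, such a correlation mainly reads the difference between them, and it is given as a description.

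The arrays had medians between 3.19 and 3.22. With 9 arrays, precision is limited by their number. No label gives a batch. RNA integrity, as the difference of 3′ and 5′ probe sets of beta-actin, was 0.47 ± 0.063 in control pools and 0.36 ± 0.034 in threat animals (SD, exact permutation p = 0.0238), while the same measure of Gapdh was lower by a mean of 0.036 (-0.036, exact permutation p = 0.512). Its part in the S100 results was not tested. Markers of other cell types moved as well, and their counts stand beside 23.8% higher and 22% lower among all genes tested. Markers fell in 8 of 9 cases for B cells, 7 of 8 for natural killer cells, 8 of 9 for dendritic cells and 4 of 8 for T cells, with no rise in these lists. The summed level of B cell genes went from 10.72 to 10.95 in control pools to 8.29 to 8.77 in threat animals. That of natural killer cell genes went from 9.35 to 9.52 to between 7.34 and 7.45. In the macrophage list 7 of 14 fell and 2 rose, in the Ly6C-low monocyte list 5 of 7 fell and 2 rose, in the platelet list 4 of 6 rose and 1 fell, and in the erythroid list 1 of 3 rose.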

How the data were processed

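RNA of CD11b+ splenocytes was hybridised to 9 Affymetrix MOE430 arrays, with the group of each array from its stress label. The authors deposited log2 expression per probe set. The submitters' processing notes name RMA, a method of background correction, normalization between arrays and probe summary, and its version is not given in the sources used here. The log base was read from the values, which run from 0.607 to 13.567 over 45101 probe sets. A difference in total RNA per cell would not be seen after such normalization, and RMA gives no detection call.

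Control probe sets (64) were dropped, and of the other 45037, a single gene is named by 34945, several by 932 and none here by 9160. Symbols were updated through Entrez numbers to RefSeq genes of GRCm38.p6 (34741 matched). Genes entered the test if their probe set's mean was at least the 40th percentile, a value of 2.66. Threat minus control was fitted with limma 3.58.1 in R 4.3.3 (lmFit and eBayes, 1 shared spread, Benjamini-Hochberg over 13078 genes at 0.05, two-sided), and SE is limma's moderated standard error. Differences within an array were compared with an exact permutation test. On simulated data of 13078 genes, limma recovered 49.3% of 67 genes changed by 0.25, 88.1% of 67 at 0.5 and 98.5% of 66 at 1, with 6 false calls. Far fewer genes changed there than the 45.8% called in the data, and pools and animals were given the same spread. These rates therefore do not carry over to the data.

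Members, lists and tests were chosen with earlier results of these data known. Named genes are the members and the other S100 genes of the list with a probe set. They also include the 3 largest differences and the highest mean in each pathway list and the 2 largest in each marker list. Itgam and the 5 genes most like S100a8 and S100a9 complete them. Tlr4, Ager, Myd88, Spi1, Atf3, Cacybp, Myh9, Cebpa, Irf7, Hif1a, Il1a, Ccr2 and Fn1 were named after their values were seen. The 10 marker lists cover granulocytes, Ly6C-high and Ly6C-low monocytes, macrophages, dendritic cells, B, T and natural killer cells, erythroid cells and platelets.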

Additional observations from a re-analysis of the deposited data

How the results depend on the processing

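All 5 rises (S100a1, S100a6, S100a8, S100a9 and S100a13) kept direction and call under every alternative run: testing without a filter on dim genes, a stricter filter at the 60th percentile, other rules for the probe set, quantile normalization, median centring, an intensity trend, 2 kinds of array weights, threat animals averaged in pairs, a limma treat test beyond 1.2-fold (where S100a8 was closest, adjusted p = 0.0406) and each array left out. Without 1 array, the difference ran from 0.87 to 0.95 for S100a1, 0.85 to 0.91 for S100a6, 0.37 to 0.41 for S100a8, 0.46 to 0.50 for S100a9 and 0.59 to 0.70 for S100a13. S100a10 turned to -0.225 with the mean of its probe sets (adjusted p = 0.00097), which made 1 member lower, and to -0.900 with its dim probe set. It passed at 0.160 with specific probe sets, which made 6 members higher. Its dim probe set has the opposite sign to the others, and these settings combine or select them. The balance of S100a9 over S100a8 was -0.010 with quantile normalization, where the cause was not tested, and 0.061 to 0.10 without 1 array. The share of genes called was 33.2% with no filter, 57.1% at the stricter filter and 40.5% to 44.4% without 1 array. Pairing of the arrays by animal number was not seen. Deviations of same-numbered pools and pairs of threat animals had correlations of 0.149, -0.152 and -0.029, and those of differently numbered ones -0.11 to 0.158. With 3 pools, such a check cannot exclude pairing. The replicate block left 5 members higher and 45.5% of genes called.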

Other observations

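Outside the S100 genes, the marker lists of other cells the selection could hold show what else moved on the same arrays. Largest differences in lymphoid lists were those of Gzma, a cytotoxic granule protease, at -3.11 (SE 0.13) and Eomes at -2.46 (SE 0.13) for natural killer cells, Ebf1 (-2.59, SE 0.12, and -1.72 with the mean of its probe sets) and Pou2af1 (-2.59, SE 0.13) for B cells, and Cd5 (-0.96, SE 0.11) and Cd3d (-0.87, SE 0.11) for T cells. In the dendritic cell list Cd209a differed by -2.16 (SE 0.074) and the chemokine receptor gene Ccr7 by -1.89 (SE 0.050). Macrophage genes went both ways: Timd4, a dim gene with a mean of 3.19, differed by -1.19 (SE 0.072) and Vcam1 by -0.96 (SE 0.083), while 2 of the 14 rose, Adgre1, a macrophage surface receptor gene, by 0.69 (SE 0.055) and Slc40a1 by 0.28 (SE 0.059), both named after their values were seen. Among Ly6C-low monocyte genes Cx3cr1 differed by -0.68 (SE 0.057) and Treml4 by 0.47 (SE 0.053). Of the platelet genes Gp1bb differed by 1.24 (SE 0.081), or 0.64 with the mean of its probe sets, and Ppbp by 0.58 (SE 0.069). Erythroid Klf1 differed by 0.18 (SE 0.060, limma adjusted p = 0.0252), a call lost without control pool 1-2 (0.17, adjusted p = 0.087) or 5-6 (0.14, adjusted p = 0.119). Alas2 did not pass (-0.16, SE 0.070, limma adjusted p = 0.0824), and it passed without pool 5-6 (-0.24, adjusted p = 0.0169). Differences are threat minus control in log2 expression, and their relation to the S100 genes was not tested.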
